A study of Homo sapiens with 192 samples.

Results

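The HOX cluster genes are the protein-coding genes named HOXA, HOXB, HOXC or HOXD with a number, and all 39 were found by symbol among the 58243 genes of the count files. Their levels were compared in 4 human colorectal cancer (CRC) cell lines by RNA-Sequencing. Microsatellites are stable in HT29 and in LS513 and instable in the tumours that gave HCT116 and LS174T. Each line was grown in 2D and in 3D without drug or genetic change, which gave 8 groups of 3 libraries and 24 libraries in all. The groups are HT29 2D, HT29 3D, LS513 2D, LS513 3D, HCT116 2D, HCT116 3D, LS174T 2D and LS174T 3D. Each line stands for 1 tumour, and HCT116 was kept in McCoy medium while the other lines were kept in DMEM, so that medium and line cannot be told apart for HCT116. The sources do not say whether the libraries of a group came from separate cultures, and p-values then measure the spread between these libraries only.

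HOX genes code for transcription factors that bind DNA through a homeodomain. They lie in clusters in which the order of the genes on the chromosome follows the order in which they are used from head to tail in the embryo, so that low numbers are called anterior and high numbers posterior. Genes with the same number in different clusters are paralogs, and HOX proteins bind DNA together with cofactors of the TALE class. In the gut, posterior HOX genes are known for the hindgut and the colon, and CDX1 and CDX2, which belong to the related ParaHox genes, for intestinal identity.

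In the GENCODE 29 annotation of GRCh38 the 11 HOXA genes lie at chr7:27092993-27200106 on the minus strand, the 10 HOXB genes at chr17:48528526-48729178 on the minus strand, the 9 HOXC genes at chr12:53938765-54056030 on the plus strand and the 9 HOXD genes at chr2:176092891-176190907 on the plus strand. A homeobox, the 180 bases that code for the homeodomain, was located in all 39 members. The homeoboxes of 4 genes of the HOXB cluster and of HOXD13 are shown because of the neighbours HOXB6 and HOXB7 the first fell and the other rose in LS174T in 3D, HOXB9 had the highest level of any member, and HOXB13 and HOXD13 rose in HT29. They are written 5′ to 3′ on the strand of the gene, and capitals mark the 18 bases that code for the core of the third helix, which lies in the DNA groove. Those of HOXB7 (chr17:48607908-48608087), HOXB9 (chr17:48622921-48623100), HOXB13 (chr17:48726820-48726999) and HOXD13 (chr2:176094524-176094703) lie in exon 2 of 2, and that of HOXB6 (chr17:48596473-48596652) lies in exon 4 of 4.
HOXB6: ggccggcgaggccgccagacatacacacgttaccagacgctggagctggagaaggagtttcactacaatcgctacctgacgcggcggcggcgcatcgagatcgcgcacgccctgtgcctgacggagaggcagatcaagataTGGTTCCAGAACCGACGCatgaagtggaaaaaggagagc
HOXB7: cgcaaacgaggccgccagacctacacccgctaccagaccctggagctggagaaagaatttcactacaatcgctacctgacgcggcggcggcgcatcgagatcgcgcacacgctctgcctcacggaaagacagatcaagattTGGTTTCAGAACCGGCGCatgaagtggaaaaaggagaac
HOXB9: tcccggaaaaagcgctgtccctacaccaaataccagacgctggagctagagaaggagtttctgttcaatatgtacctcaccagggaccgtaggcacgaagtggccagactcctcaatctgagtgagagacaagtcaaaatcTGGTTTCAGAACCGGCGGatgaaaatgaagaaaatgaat
HOXB13: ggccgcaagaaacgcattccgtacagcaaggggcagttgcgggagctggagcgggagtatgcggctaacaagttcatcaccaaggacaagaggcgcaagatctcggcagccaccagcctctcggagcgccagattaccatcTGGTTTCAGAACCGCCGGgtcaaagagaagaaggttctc
HOXD13: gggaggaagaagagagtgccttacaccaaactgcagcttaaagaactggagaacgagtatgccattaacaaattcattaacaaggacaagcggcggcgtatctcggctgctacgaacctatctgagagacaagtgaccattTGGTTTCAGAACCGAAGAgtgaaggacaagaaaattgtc
The homeoboxes of HOXB6 and HOXB7 were identical at 88.9% of their bases, those of HOXB9 and HOXB13 at 61.1% and those of the paralogs HOXB13 and HOXD13 at 70.0%. Over all 741 pairs of members the identity ran from 47.8%, as for HOXB7 and HOXD13, to 91.1% for HOXA6 and HOXA7. Within the coding transcripts of the members, full reads of 75 bases were still specific to a cluster. Among 93085 windows of that length, 0 were shared between clusters, and 410 were shared by members of 1 cluster, HOXC4 and HOXC6. The authors also kept reads shortened by trimming, and shorter windows were not tested. Alignments of reads that matched the genome more than once were removed by the authors. Over all annotated exons, more members of a cluster overlapped on the same strand. HOXB6 shared 16.6% of its exonic bases with HOXB3, and HOXD11 shared 21.4% with HOXD10.

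Library totals ran from 18723942 to 34277421 counts with a median of 30777613, and a floor of 3 counts corresponded to between 0.0875 and 0.160 CPM, the count scaled to a common library size. Values are given in CPM on the scale of TMM, a normalization of library totals, and a member was called expressed in a line when it reached 1 CPM in all 6 libraries of the line. In HT29 3D, replicate 3 was the lowest of the 3 libraries for 19 of 24 expressed members and replicate 1 the highest for 20. In LS174T 3D, replicate 2 was the lowest for 10 of 14. The 9 intestinal epithelial markers summed to between 3634 and 18850 CPM in each library, while 13 markers of fibroblasts, endothelium and immune cells summed to between 0.478 and 23.6 CPM. VIL1 (villin of the brush border) was at 0.223 ± 0.0691 CPM in HCT116 2D against 1333 ± 43.4 CPM in LS513 2D (mean ± SD, n = 3 as throughout for groups), so this marker was near the floor in HCT116, where KRT20 and LGALS4 were also under 1 CPM in 2D.

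Each line used its own set of HOX genes. HT29 expressed 24 of the 39 members and HCT116 25, whereas LS513 and LS174T expressed 14 each. The HOXA cluster was used in all lines, the HOXB cluster in part in LS174T, the HOXC cluster in HT29 and HCT116, and the HOXD cluster through single genes or not at all. In HT29 6 members, in HCT116 7, and in LS513 and LS174T 14 each did not exceed 3 counts in any library, and 10 of these 14 were at 0 counts throughout in LS513 and again in LS174T. In HT29 these were HOXD1, HOXD3, HOXD4, HOXD8, HOXD10 and HOXD11, and in HCT116 HOXB1, HOXC12, HOXD1, HOXD9, HOXD10, HOXD12 and HOXD13. In LS513 they were HOXB1, HOXC4, HOXC5, HOXC8, HOXC9, HOXC11, HOXC12, HOXD1 and HOXD8 to HOXD13, and in LS174T HOXB1, HOXC5, HOXC8 to HOXC13, HOXD1 and HOXD9 to HOXD13. Of the summed CPM of all members in 2D, HOXB genes took 63.9 ± 0.347% in LS513, 62.9 ± 1.53% in HT29, 41.5 ± 1.38% in HCT116 and 14.96 ± 1.16% in LS174T. HOXA genes took 35.9 ± 0.362%, 32.5 ± 0.790%, 50.6 ± 1.03% and 83.5 ± 1.05% in the same order. The HOXC share was 4.30 ± 0.894% in HT29 and 6.25 ± 0.237% in HCT116, 0.179 ± 0.0112% in LS513 and 0.327 ± 0.0609% in LS174T.

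**Figure D1:**
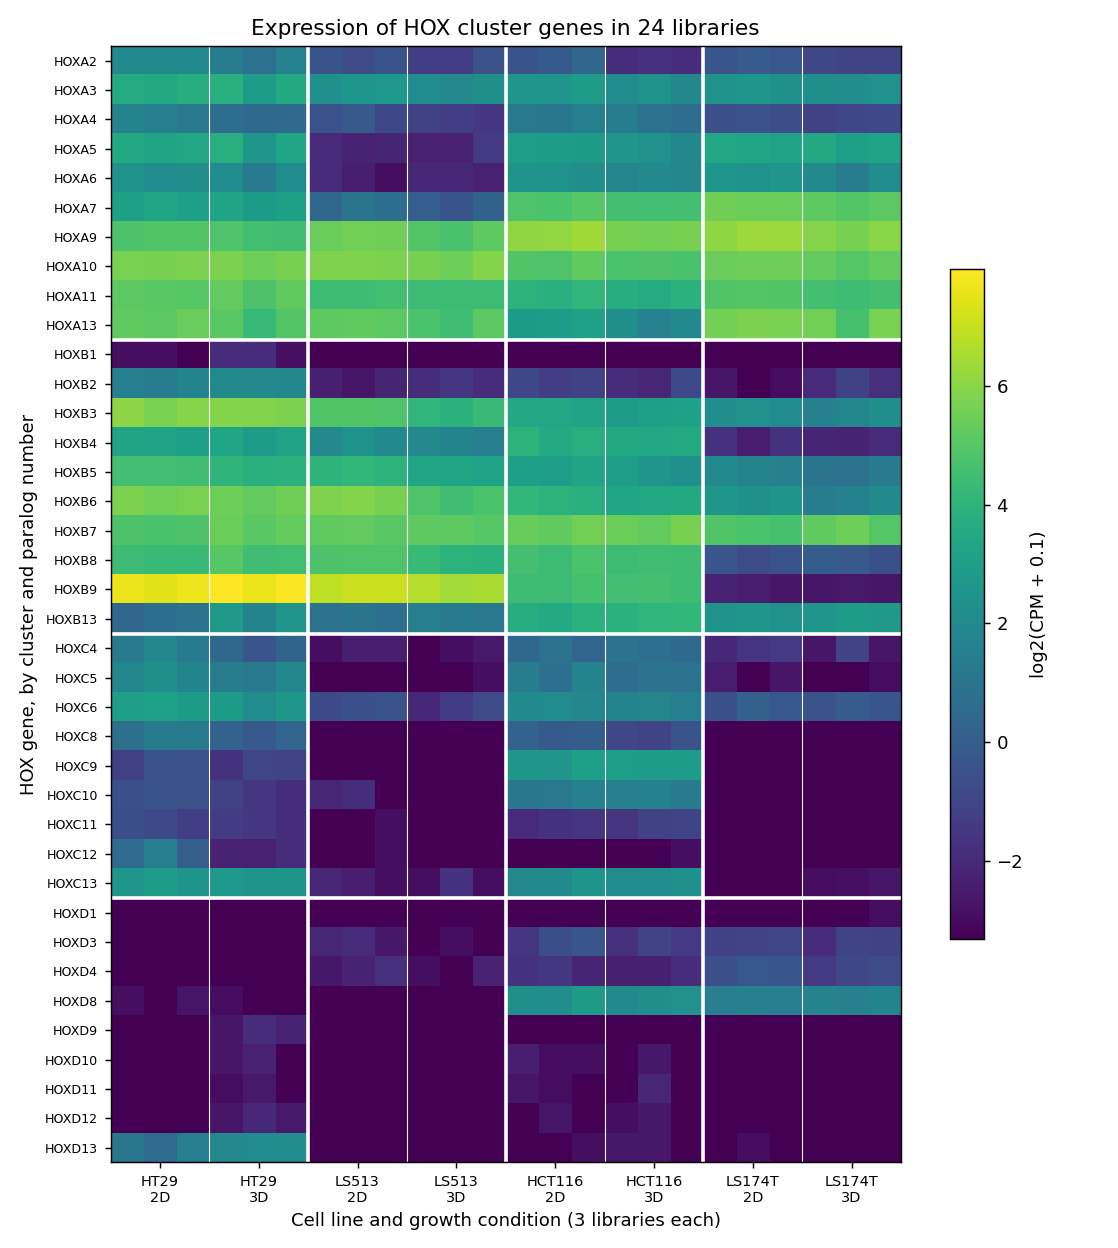
Level of 38 HOX genes (rows, by cluster and number) in 24 libraries (columns, 3 for each line and growth condition), as log2(CPM + 0.1) by colour. HOXB9 is brightest in HT29 and LS513, and the HOXC rows are dark in LS513 and LS174T apart from HOXC6, which stays under 1 CPM there.

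Between lines, 157 of 198 tests of a member on a pair of lines passed an adjusted p of 0.05. Of 33 members, 27 passed for HT29 against LS513 (69.3% of all 19387 genes tested), 27 for HT29 against HCT116 (75.7%), 30 for HT29 against LS174T (73.5%), 26 for LS513 against HCT116 (76.2%), 21 for LS513 against LS174T (68.9%) and 26 for HCT116 against LS174T (76.0%). Members that passed the filter on low counts only through the line in which they are high had to differ, so these counts describe the lines and give no further support.

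In the HOXA cluster, HOXA3, HOXA9, HOXA10, HOXA11 and HOXA13 were expressed in all 4 lines. To compare genes, CPM were divided by the exonic length in kilobases. HOXA9, a posterior gene also known for its part in blood cell leukaemias, was the highest HOXA member per length in HCT116 with 20.5 ± 4.62 and in LS174T with 21.9 ± 3.63 CPM per kilobase (SD, n = 6 libraries as for the other values per length). Over the 6 libraries of both growth conditions HOXA10 was highest in LS513 with 14.3 ± 1.35, although in LS513 2D alone HOXA9 was as high, with 14.8 ± 1.11 beside 14.6 ± 0.299 (n = 3), and HOXA11 was highest in HT29 with 14.8 ± 1.47, next to HOXA10 with 13.7 ± 0.957 CPM per kilobase. When exonic bases shared with another gene of the same strand were left out of the length, HOXA10 came first in HT29 too, with 15.2 CPM per kilobase. HOXA9 did not differ between HCT116 and LS174T beyond its spread (log2 difference -0.11, adjusted p = 0.22), nor HOXA10 between HT29 and LS513 (-0.05, adjusted p = 0.56).

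The central HOXA genes were low in LS513. HOXA5 held between 3 and 8 counts in each LS513 library, and its levels were 10.7 ± 1.05 CPM in HT29 2D, 7.29 ± 0.309 CPM in HCT116 2D and 9.91 ± 0.976 CPM in LS174T 2D. HOXA6 held between 1 and 5 counts in LS513, and HOXA7 reached only 1.63 ± 0.323 CPM in LS513 2D against 43.6 ± 2.50 CPM in LS174T 2D. HOXA4, next to HOXA5, was at 0.614 ± 0.171 CPM in LS513 2D, and HOXA3 and HOXA9, on either side of these genes, were expressed. The low level of HOXA4 was shared by LS174T, with 0.576 ± 0.0467 CPM in 2D. LS513 and LS174T did not differ at HOXA4 beyond its spread (log2 difference -0.185, adjusted p = 0.47). HOXA13, the most posterior gene of the cluster, was lower in HCT116 than in each other line, with a log2 difference of -3.05 to LS174T (adjusted p = 4.9e-14).

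The HOXB cluster held both the highest and the most uneven members. HOXB9 reached 202, 179 and 206 CPM in the 3 libraries of HT29 2D and 119, 135 and 135 CPM in those of LS513 2D. In HCT116 2D it was at 21.3, 21.4 and 25.6 CPM, and in the 6 LS174T libraries it held between 2 and 4 counts. The 4 lines therefore did not overlap at this gene, and LS174T held at most 4 counts in a library. Per length HOXB9 reached 82.6 ± 10.8 CPM per kilobase in HT29 and 43.6 ± 8.14 in LS513, the highest value of any member in both lines.

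HOXB7, its neighbour but one, was almost level across the lines and was the highest HOX gene per length in HCT116 with 28.1 ± 3.22 CPM per kilobase, above LS513 with 23.3 ± 1.20. HT29 had 21.7 ± 4.50 and LS174T 21.4 ± 4.62 CPM per kilobase. HOXB7 did not differ between HT29, LS513 and LS174T beyond its spread, with adjusted p-values from 0.15 to 0.90, and their log2 differences to HCT116 were -0.40 for HT29 and -0.27 for LS513, and HCT116 exceeded LS174T by 0.41, with adjusted p-values from 1.5e-04 to 0.0070. In LS174T the genes on both sides of HOXB7 were lower: HOXB8 was at 0.607 ± 0.0889 CPM and HOXB6 at 5.63 ± 0.653 CPM in 2D, while HOXB7 was at 27.5 ± 1.91 CPM.

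HOXB2 was set apart in HT29, where its lowest library (2.68 CPM) lay 10.8-fold above the highest library of LS513, 5.74-fold above that of HCT116 and 7.36-fold above that of LS174T. HOXB4 was expressed in every line but LS174T, where it held between 3 and 7 counts. HOXB13, the most posterior HOXB gene, which is known for the prostate and the hindgut, was highest in HCT116 with 13.02, 12.02 and 14.7 CPM in 2D. It was at 5.41, 5.86 and 5.12 CPM in LS174T 2D and under 2 CPM in every 2D library of HT29 and LS513. HOXB1, the most anterior gene of the cluster, was at 0 counts in LS513, HCT116 and LS174T and held at most 5 counts in a library of HT29.

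**Figure D2:**
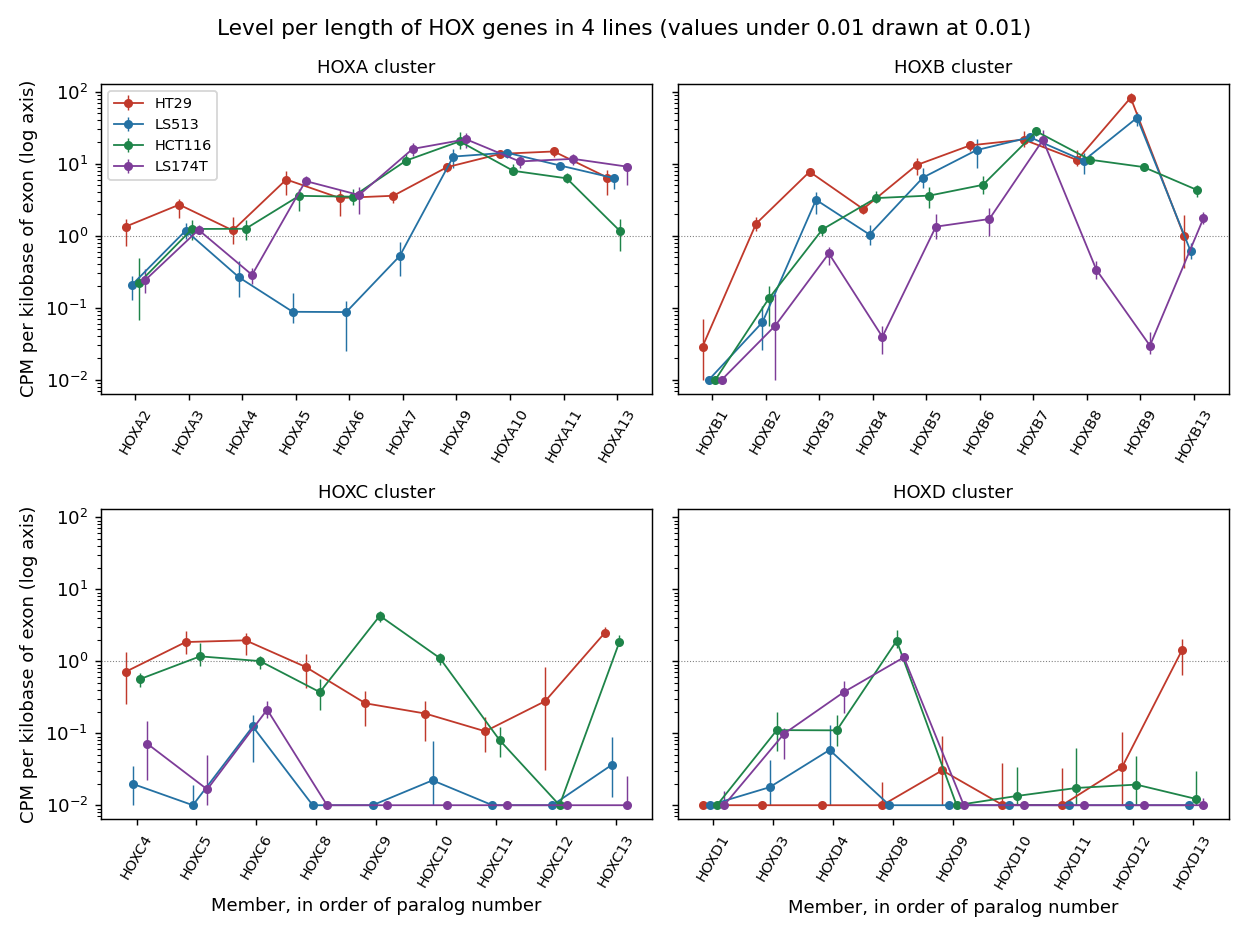
Mean level per length (CPM per kilobase of exon, log axis) of 38 HOX genes in order of their number, with 1 panel for each cluster and 1 colour for each line. Bars run from the lowest to the highest of 6 libraries. LS513 dips at HOXA5 and HOXA6, LS174T dips at HOXB4, HOXB8 and HOXB9, and in the HOXD panel HOXD8 stands out in HCT116 and LS174T and HOXD13 in HT29.

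In the HOXC cluster, HT29 expressed HOXC5, HOXC6 and HOXC13, and HCT116 expressed these with HOXC4, HOXC9 and HOXC10. HOXC4 did not differ between HT29 and HCT116 beyond its spread (log2 difference 0.17, adjusted p = 0.54). Its lowest HT29 library, at 0.692 CPM, was under the limit of 1 CPM. HOXC8 and HOXC12 were at 2.13 ± 0.36 and 1.73 ± 0.917 CPM in HT29 2D but missed the limit over all 6 libraries. LS513 and LS174T expressed none, and in both HOXC6 was the highest member with 0.124 ± 0.0532 and 0.213 ± 0.0428 CPM per kilobase. HOXC9 was at 6.22, 5.90 and 8.28 CPM in HCT116 2D, while its highest HT29 library was at 0.654 CPM, 9.02-fold under the lowest HCT116 library. HOXC9 was at 0 counts in all libraries of LS513 and LS174T, so that its lowest HCT116 library lay at least 55.3-fold and at least 53.9-fold higher than the floor of 3 counts per library there. HOXC13, known for hair and nail, was the highest HOXC gene in HT29 with 2.51 ± 0.280 CPM per kilobase and was at 1.87 ± 0.257 in HCT116. HOXC5 shares 59.9% of its exonic bases with other genes of its strand, and with the unshared length HOXC5 was highest in HT29 with 4.61 CPM per kilobase.

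In the HOXD cluster a single gene was expressed in each of 3 lines. HOXD8 was at 4.89, 4.57 and 7.06 CPM in HCT116 2D and at 2.72, 2.93 and 2.73 CPM in LS174T 2D, and it was at 0 counts in LS513 and at 0 or 1 count in HT29. HCT116 exceeded LS174T by 0.76 on the log2 scale (adjusted p = 1.0e-04). HOXD13, which is known for the limbs and the hindgut, was seen in HT29 alone with 42 to 60 counts in each 2D library, against at most 2 counts in any library of the other lines. HOXD1, HOXD9, HOXD10, HOXD11 and HOXD12 and the HOXB gene HOXB1 were too low to be tested, with totals over all 24 libraries of 1, 10, 12, 10, 13 and 13 counts. HOXD3 and HOXD4 share 62.2% and 80.5% of their exonic bases with other genes of the same strand. With the unshared length, HOXD4 and not HOXD8 was the highest HOXD member in LS174T, at 1.91 CPM per kilobase. HOXD4 held only 9 to 27 counts in a library there, at most 0.768 CPM, and was not expressed. Values with the unshared length divide all reads of a gene by fewer bases. They are too high if reads of the shared bases were counted, which is not known.

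The question of the series, whether growth in 3D changes expression, was then put to the HOX genes. In HT29, 12 of 33 members tested were called at an adjusted p under 0.05 (36.4%), beside 40.7% of all genes tested. Of these, 4 were higher in 3D (12.1% of the members, 21.1% of all genes) and 8 were lower (24.2%, against 19.6%). In LS513 10 members were lower (30.3%, against 9.90% of all genes) and 0 were higher (against 13.7%), with 1 member higher at an unadjusted p under 0.05 in edgeR and 0 called higher by DESeq2 at an adjusted p under 0.05. In HCT116 8 were lower (24.2%, against 12.3%) and 0 were higher (against 16.8%), and there 0 were higher at an unadjusted p under 0.05 in edgeR and 0 were called higher by DESeq2. In LS174T 7 were lower (21.2%, against 9.15%) and 2 higher (6.06%, against 13.1%). In either direction all genes were called at 23.6% in LS513, 29.1% in HCT116 and 22.2% in LS174T. Medians of the log2 fold change of 3D over 2D were taken over members whose higher group reached 1 CPM. They were -0.13 in HT29 (27 members), -0.44 in LS513 (15), -0.27 in HCT116 (25) and -0.31 in LS174T (14). Over all genes tested, without that limit, the median was between 0.00 and 0.02. The summed CPM of all members went from 471.8 ± 17.3 to 347.6 ± 28.5 in LS513, from 363.9 ± 32.0 to 306.8 ± 5.56 in HCT116, from 318.5 ± 7.56 to 272.4 ± 24.4 in LS174T and from 619.1 ± 25.5 to 628.0 ± 77.6 in HT29.

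**Figure D3:**
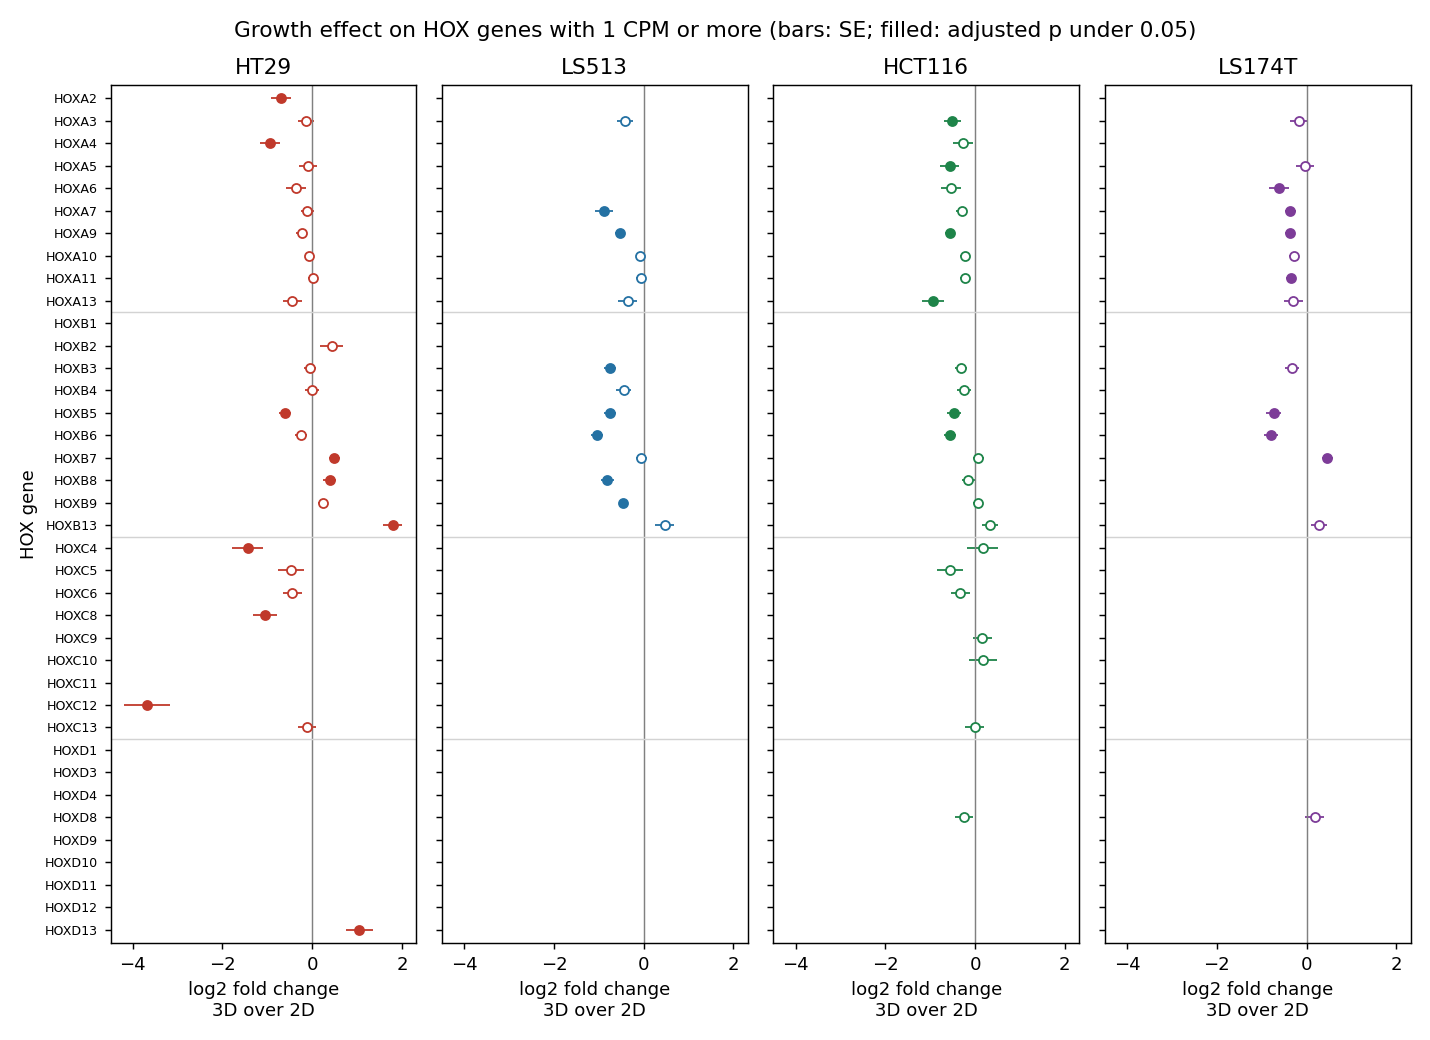
log2 fold change of 3D over 2D with its standard error for the HOX genes drawn whose higher group reached 1 CPM, in 4 panels for the lines. Filled points passed an adjusted p of 0.05. HT29 has filled points on both sides of 0, LS513 and HCT116 on the left only, and HOXB5 is filled on the left in all 4 panels.

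In HT29, HOXB7, HOXB8, HOXB13 and HOXD13 rose, and members of the HOXC and HOXA clusters and HOXB5 fell. Posterior genes were on both sides, since HOXC10 and HOXC12 fell. HOXA13 went from 37.8 ± 4.06 to 27.7 ± 7.96 CPM without a call (log2 fold change -0.44, adjusted p = 0.1). HOXB13 went from 1.23, 1.58 and 1.81 CPM in 2D to 6.73, 3.32 and 5.80 CPM in 3D, a log2 fold change of 1.797 (SE 0.21, adjusted p = 8.4e-07). HOXD13 went from 2.06, 1.45 and 2.74 CPM to 3.92, 4.25 and 4.61 CPM, with no overlap (log2 fold change 1.05, SE 0.31, adjusted p = 0.011). HOXB7 rose from 27.5 ± 1.14 to 38.7 ± 4.73 CPM (0.49, adjusted p = 0.0026) and HOXB8 by 0.39 (adjusted p = 0.027). The call of HOXB8 rested on a few libraries, since its adjusted p was 0.19 without HT29 3D replicate 1, 0.060 without HT29 2D replicate 2 and 0.064 without HT29 2D replicate 3.

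HOXC12 was detected in HT29 2D with 1.44, 2.75 and 0.986 CPM and fell to 0.121, 0.104 and 0.181 CPM in 3D, where its libraries held between 3 and 5 counts. Its log2 fold change was -3.67 (SE 0.51, adjusted p = 4.9e-05), and the 3D values lie near the floor. HOXC4 fell from 2.85 ± 0.691 to 1.05 ± 0.318 CPM (-1.44 on the log2 scale, adjusted p = 0.0020), HOXA4 from 2.72 ± 0.534 to 1.42 ± 0.129 CPM (-0.94, adjusted p = 0.0021) and HOXB5 from 23.6 ± 0.913 to 15.5 ± 1.20 CPM (-0.61, adjusted p = 0.0015). HOXC8, HOXA2 and the low HOXC10 (0.613 CPM in 2D) were lower as well, with log2 fold changes of -1.05, -0.70 and -1.20. Without HT29 3D replicate 3, the library in which most members were lowest, HOXA2 was at -0.45 (adjusted p = 0.12), and it also lost its call without HT29 2D replicate 2 (adjusted p = 0.054).

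In LS513, 5 HOXB genes fell, together with HOXA4, HOXA7, HOXA9, HOXC10 and HOXD3. HOXB6 went from 54.5, 58.1 and 50.1 CPM in 2D to 28.8, 22.9 and 27.1 CPM in 3D (log2 fold change -1.05, SE 0.13, adjusted p = 3.7e-06). HOXB8 went from 28.0, 29.2 and 29.1 CPM to 19.3, 15.5 and 14.6 CPM (-0.81, SE 0.14, adjusted p = 1.5e-04). HOXB3 and HOXB5 fell from 29.5 ± 0.774 to 17.5 ± 2.57 CPM and from 16.5 ± 0.971 to 9.80 ± 0.451 CPM, both by 0.75 on the log2 scale. HOXB9 fell from 129.9 ± 9.27 to 95.0 ± 10.2 CPM (-0.45 on the log2 scale, adjusted p = 0.0024). HOXB7, between HOXB6 and HOXB8, was at 36.3 ± 2.19 CPM in 2D and 34.96 ± 1.51 CPM in 3D and was not called (log2 fold change -0.06, adjusted p = 0.82). Of the HOXA genes, HOXA9 fell from 44.9 ± 3.36 to 31.2 ± 4.84 CPM (-0.53, adjusted p = 0.0023) and HOXA7 from 1.63 ± 0.323 to 0.888 ± 0.190 CPM (-0.88, adjusted p = 0.0023), while HOXA10 and HOXA11 were not called, at -0.07 and -0.06. HOXA4, HOXC10 and HOXD3 were under 1 CPM in both groups, and HOXC10 held at most 6 and HOXD3 at most 5 counts in a library.

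In HCT116, HOXA9 went from 68.9, 70.2 and 82.8 CPM in 2D to 49.7, 49.2 and 51.1 CPM in 3D (log2 fold change -0.56, SE 0.12, adjusted p = 9.3e-04). HOXA13 went from 7.04, 7.36 and 8.69 CPM to 4.85, 3.07 and 4.18 CPM (-0.93, SE 0.24, adjusted p = 0.0060), and HOXB6 from 17.8, 15.9 and 13.7 CPM to 10.04, 10.7 and 11.4 CPM (-0.56, SE 0.14, adjusted p = 0.0035). HOXB5, HOXA5 and HOXA3 fell as well, with log2 fold changes of -0.47, -0.57 and -0.51 and adjusted p-values of 0.019, 0.049 and 0.041. HOXA2 and HOXC8 were under 1 CPM in both groups as means and were called lower at -2.31 and -0.91. HOXA2 had 22 to 38 counts in each 2D library and 5 or 6 in each 3D library. The number of members called was 5 without HCT116 3D replicate 2, without HCT116 2D replicate 1 or without HCT116 2D replicate 2. HOXA3 and HOXA5 each lost their calls in turn with 5 of the 6 libraries, and HOXB5 with 3 of them, HCT116 3D replicate 2, 3D replicate 3 and 2D replicate 3 (adjusted p from 0.061 to 0.086).

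In LS174T, HOXB6 fell from 6.25, 4.95 and 5.69 CPM to 2.61, 3.03 and 4.15 CPM (log2 fold change -0.78, SE 0.15, adjusted p = 9.6e-04) and HOXB5 from 4.07, 3.24 and 2.90 CPM to 1.96, 1.82 and 2.36 CPM (-0.73, SE 0.17, adjusted p = 0.0038). HOXB7, next to HOXB6 on the chromosome, rose from 29.7, 26.9 and 26.0 CPM to 36.8, 44.7 and 32.2 CPM (0.46, SE 0.12, adjusted p = 0.0096). HOXA11, HOXA9, HOXA7 and HOXA6 fell, with log2 fold changes of -0.36, -0.36, -0.36 and -0.61 and adjusted p-values from 0.018 to 0.043. The low HOXA2 and HOXB2 were called at -0.90 and 2.80, HOXB2 with 0 to 2 counts in the 2D libraries and 5 to 10 in the 3D libraries, so that its fold change depends on the prior count. Without LS174T 3D replicate 2 only 3 members were called in place of 9, and HOXB7 was then at 0.34 (adjusted p = 0.075). Without LS174T 2D replicate 2 or LS174T 2D replicate 3 the number was 4, and HOXA6, HOXA7, HOXA9 and HOXA11 lost their calls in each of these 3 cases. With only the LS174T libraries in the fit 2 members were called.

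**Figure D4:**
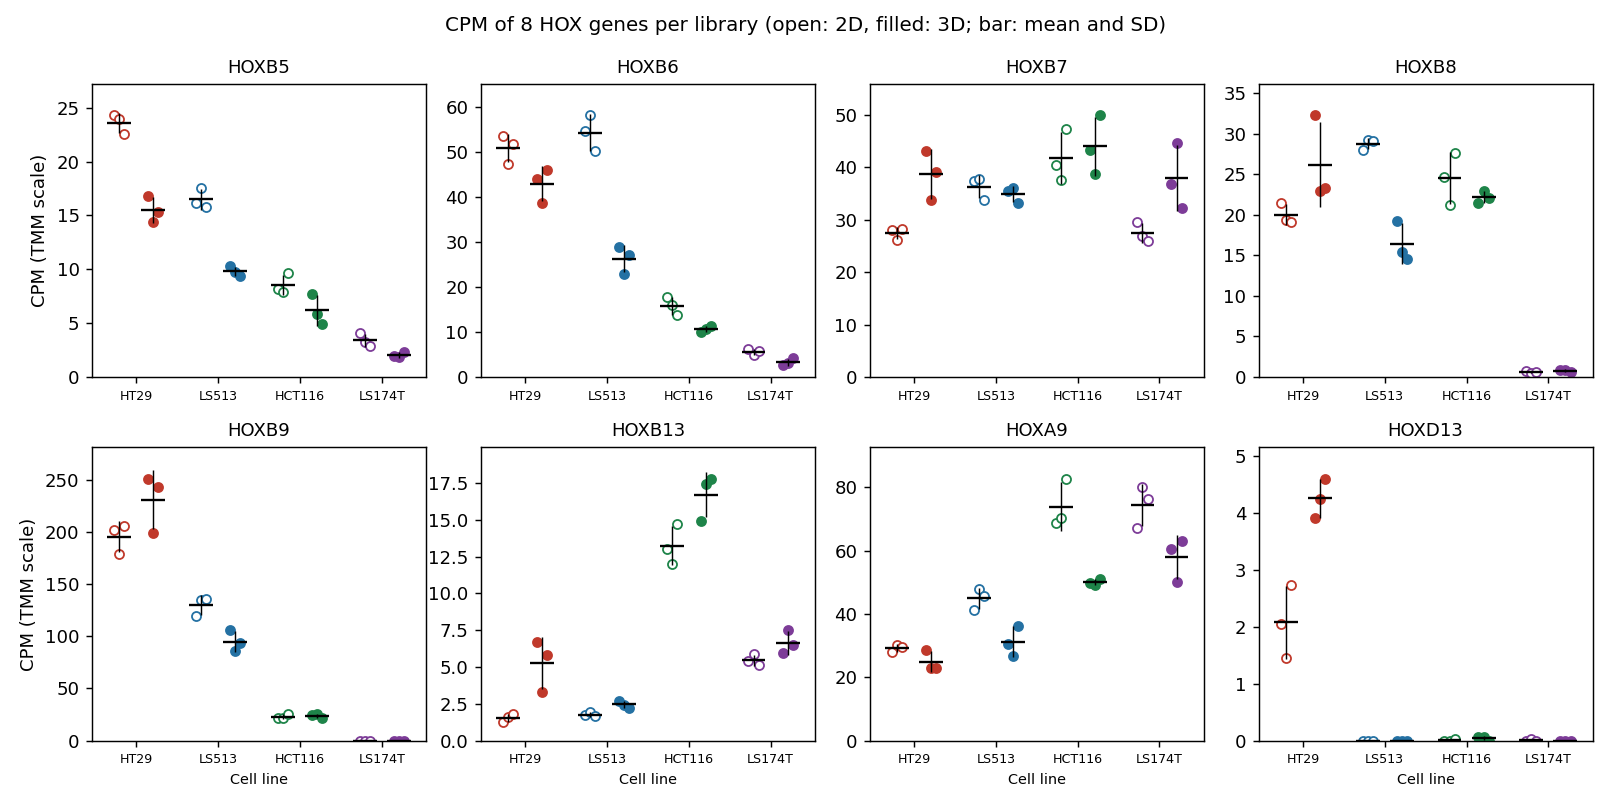
CPM of 8 HOX genes in each library, with open points for 2D and filled points for 3D, a bar for the mean of 3 libraries and a line for the SD. HOXB5 is lower in 3D in every line, HOXB7 is higher in HT29 and LS174T, and HOXB8 moves up in HT29 and down in LS513.

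Across the lines, HOXB5 was the single member called lower in all 4, with log2 fold changes of -0.75 in LS513, -0.73 in LS174T, -0.61 in HT29 and -0.47 in HCT116. Its 2D and 3D libraries did not overlap in any line. Among all genes tested, 2.46% were called lower in all 4 lines. HOXA2, HOXA9 and HOXB6 were called lower in 3 lines each, beside 3.86% of all genes, and 4 more members in 2 lines, beside 7.40%. In all, 24 of the 33 members tested were called in at least 1 line, in either direction, beside 60.9% of all genes. The HCT116 call of HOXB5 was among those lost when a library was left out, and with only the libraries of the line in the fit it was lost in HCT116 (adjusted p = 0.063) and in LS174T (adjusted p = 0.05).

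The growth effect differed between the lines for 8 of 33 members by the interaction test (24.2%, beside 17.1% of all genes tested). HOXB8 had the smallest adjusted p (5.1e-04): it rose in HT29, fell in LS513, and was at -0.15 in HCT116 and 0.34 in LS174T without a call. HOXB13 followed (adjusted p = 9.5e-04), with 1.797 in HT29 against values of 0.28 in LS174T, 0.34 in HCT116 and 0.47 in LS513. In each of those 3 lines all 3D libraries of HOXB13 were above all 2D libraries although the change was not called. Other uncalled members were without overlap too, such as HOXA10 in HCT116 and LS174T and HOXA13 in HT29 and LS513. The lack of overlap therefore gives no further support. HOXB9 (adjusted p = 0.0077) was at 0.24 in HT29 without a call and fell in LS513. HOXB6 (adjusted p = 0.018) was at -0.25 in HT29, where it was not called, and at -1.05 in LS513. HOXB7, HOXC10, HOXA2 and HOXB2 also passed, with adjusted p-values of 0.045, 0.045, 0.023 and 0.019, the last 3 with groups near the floor in some lines. HOXB5 did not differ between lines in this test (adjusted p = 0.71), and neither did HOXA9 (adjusted p = 0.40). Without LS513 2D replicate 2, or without LS174T 2D replicate 2, 5 members passed the interaction test. With a replicate block in the fit fewer still passed, as given at the end.

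Noncoding genes lie between the HOX genes, many on the opposite strand, and 18 of them were followed as a group. Of the 13 tested, 3 were higher and 1 lower in HT29, and 1 higher and 2 lower in LS513. In HCT116 2 were higher and 1 lower, and in LS174T 1 was higher and 1 lower. Of all genes tested, 21.1%, 13.7%, 16.8% and 13.1% were called higher and 19.6%, 9.90%, 12.3% and 9.15% lower in the same order. HOXA11-AS, which overlaps 31.1% of the exonic bases of HOXA11 on the other strand, rose in all 4 lines. It went from 13.5, 12.9 and 12.4 CPM to 20.9, 17.6 and 19.5 CPM in HT29 (log2 fold change 0.58, adjusted p = 1.4e-04) and from 17.6, 16.9 and 18.8 CPM to 23.7, 25.2 and 22.1 CPM in LS174T (0.41, adjusted p = 0.0062). In LS513 it rose by 0.35 and in HCT116 by 0.42 on the log2 scale, with adjusted p-values of 0.019 and 0.033. HOXA11 itself was called in LS174T only, where it fell, with log2 fold changes of 0.02, -0.06, -0.23 and -0.36 in HT29, LS513, HCT116 and LS174T. The libraries were strand specific, but the strand setting of the counting is not given in the sources used here, so it is not known how reads of the shared bases were assigned.

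HOXB-AS3, which shares exonic bases with HOXB5, HOXB6 and HOXB3, rose in HT29 from 6.79, 7.91 and 6.90 CPM to 17.6, 20.6 and 17.7 CPM (1.37, SE 0.22, adjusted p = 3.3e-05) and fell in LS513 from 5.24 ± 0.343 to 3.27 ± 1.05 CPM (-0.68, adjusted p = 0.033). This difference between lines passed the interaction test (adjusted p = 4.0e-04). HOXA10-AS, across from HOXA9 and HOXA10, fell in HCT116 (-0.48, adjusted p = 0.0029) and LS174T (-0.72, adjusted p = 1.5e-04). HOXA-AS3, which overlaps 62.5% of the exonic bases of HOXA7, rose in HT29 alone among the calls (0.72, adjusted p = 0.013). HOXC-AS1 rose in HCT116 to 1.69 ± 0.146 CPM (1.16, adjusted p = 0.028), and HOXB-AS4 fell in LS513 from 0.553 to 0.140 CPM. HOTAIR, the long noncoding gene between HOXC11 and HOXC12 that is known for binding Polycomb proteins, was named after its values were seen. It was high in HT29 only and fell there from 25.1, 30.6 and 27.3 CPM to 14.3, 11.4 and 12.7 CPM (-1.11, SE 0.21, adjusted p = 3.1e-04), in the line in which HOXC12 fell. HOTAIRM1, HOXA-AS2, HOTTIP, HOXB-AS1, HOXC-AS2 and HOXD-AS2 were not called in any line, and HOXB-AS2, HOXC-AS3, HOXC13-AS, HAGLR and HAGLROS were too low to be tested.

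**Figure D5:**
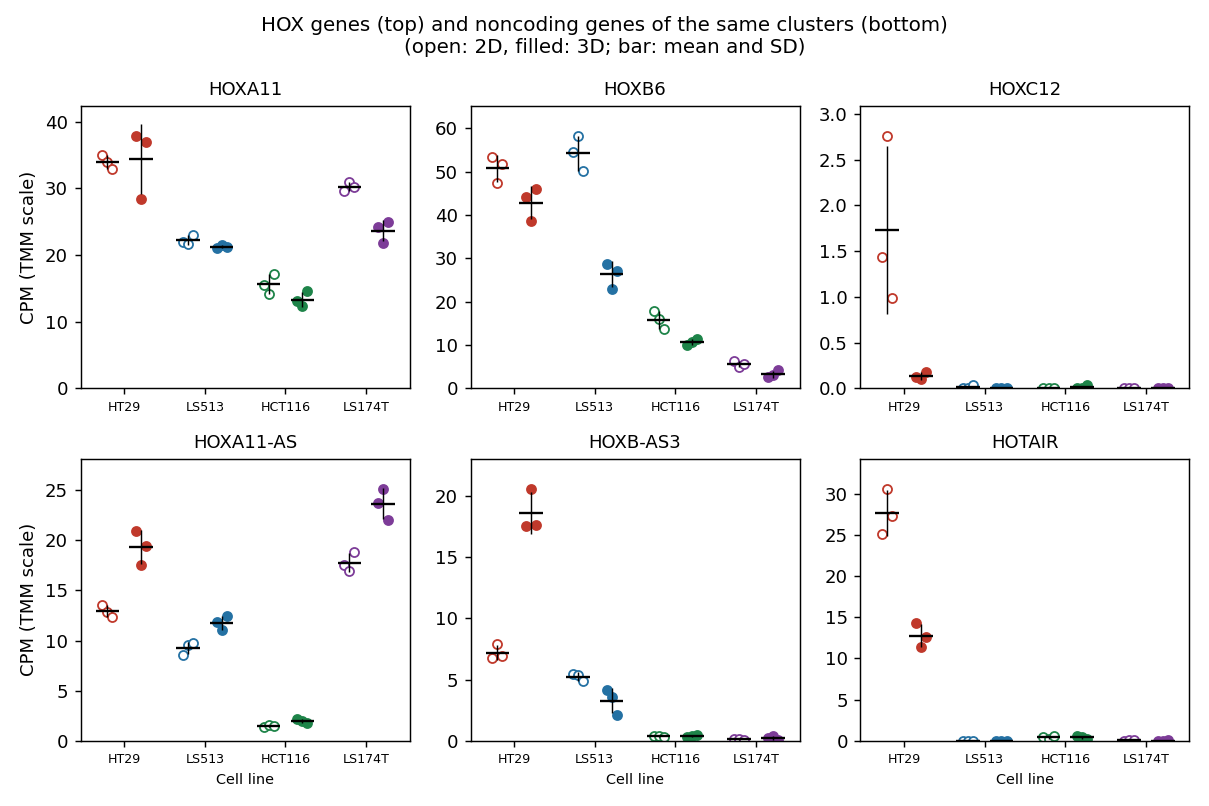
CPM per library of HOXA11, HOXB6 and HOXC12 (top) and of HOXA11-AS, HOXB-AS3 and HOTAIR (bottom), with open points for 2D, filled points for 3D and bars for mean and SD. HOXA11-AS is higher in 3D in every line while HOXA11 is not, and HOTAIR is near 0 outside HT29.

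Of the genes that flank the clusters, 10 of 13 were tested, and 6 were higher and 2 lower in HT29, 3 higher and 1 lower in LS513, 4 higher and 1 lower in HCT116 and 2 higher in LS174T. All genes tested were called higher at 21.1%, 13.7%, 16.8% and 13.1% in the same order. CALCOCO1, a neighbour of the HOXC cluster, rose in all 4 lines by 0.82 to 1.496 on the log2 scale, and CALCOCO2, beyond the HOXB cluster, by 0.26 to 0.49. EVX1, a homeobox gene next to HOXA13, was at 36.7 ± 4.36 CPM in LS513 2D and rose to 52.7 ± 3.68 CPM (0.52, adjusted p = 0.0044), while it was at 4.94 ± 0.418 CPM in LS174T 2D and at 0.0805 CPM or less in HT29 2D and HCT116 2D. SKAP1 rose in HCT116 (1.03, adjusted p = 2.1e-04). PRAC1 and PRAC2, which lie between HOXB9 and HOXB13 and are known for prostate and distal colon, were too low to be tested, at 0.157 CPM or less in every group.

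Cofactors of the TALE class form complexes with HOX proteins. Of 9 such genes 8 were tested, and 2 rose and 2 fell in HT29, 2 rose and 1 fell in LS513, and 2 rose and 1 fell in HCT116. In either direction 40.7% of all genes tested were called in HT29, 23.6% in LS513 and 29.1% in HCT116. MEIS3 rose from 0.851 ± 0.283 to 4.69 ± 0.980 CPM in HT29 (2.45, adjusted p = 3.7e-07) and from 7.85 ± 2.23 to 19.8 ± 2.28 CPM in HCT116 (1.33, adjusted p = 4.3e-05). In LS513 it went from 0 to 0.164 CPM, close to the floor, with a call. PBX3 fell in LS513 (-0.55, adjusted p = 0.0020) and PKNOX1 fell in HCT116 (-0.42, adjusted p = 0.014) and HT29 (-0.37, adjusted p = 0.020). In LS174T the adjusted p-values of these 3 genes were between 0.19 and 0.77. MEIS1, a main partner of HOXA9 in leukaemia, was at 0 counts in LS513 and HCT116.

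Polycomb proteins keep HOX genes silent, and MLL and Trithorax proteins keep them active. Of 18 Polycomb genes, 2 rose and 8 fell in HT29, and 1 rose and 4 fell in LS513. In HCT116 2 rose and 7 fell, and in LS174T 2 rose and 2 fell. Over all genes tested, 21.1%, 13.7%, 16.8% and 13.1% were called higher and 19.6%, 9.90%, 12.3% and 9.15% lower in the same order. EZH2, the methyltransferase of the complex, fell from 110.0 ± 5.63 to 66.5 ± 8.22 CPM in HT29 (-0.73, adjusted p = 6.0e-07) and from 117 ± 2.68 to 79.9 ± 2.404 CPM in HCT116 (-0.55, adjusted p = 3.2e-05). CBX6 fell in these lines too (-0.68 and -0.43). EED and RBBP4 fell in HT29, LS513 and HCT116, in LS513 with log2 fold changes of -0.36 and -0.39. CBX2 fell in HCT116 and in LS174T (-0.39, adjusted p = 0.0057), and CBX7 rose in HT29, HCT116 and LS174T, there with 0.47 (adjusted p = 0.014). Of 13 MLL and Trithorax genes, 7 fell in HT29, 4 in LS174T, 3 in LS513 and 3 in HCT116, where 1 rose. These counts stand beside the same shares of all genes in each line. WDR5, a shared subunit of these complexes, fell in all 4 lines with log2 fold changes from -0.45 in HCT116 to -0.24 in LS174T. KMT2A and ASH1L fell in HT29 (-0.97 and -0.89) and LS174T (-0.71 and -0.74), PSIP1 in HT29, LS513 and HCT116 (-0.44, -0.67 and -0.34) and MEN1 in HCT116 (-0.25).

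Of the ParaHox genes, CDX1, CDX2 and PDX1, 3 of 6, were tested, and all 3 rose in HT29 and CDX2 alone in LS513 and LS174T. The share of all genes called higher was 21.1% in HT29, 13.7% in LS513 and 13.1% in LS174T. CDX2 rose in HT29 from 1.68, 0.964 and 1.64 CPM to 7.72, 5.50 and 6.93 CPM (2.25, SE 0.17, adjusted p = 1.8e-09), in LS513 (0.60, adjusted p = 6.2e-04) from 154 ± 12.7 to 233 ± 19.4 CPM and in LS174T from 76.2 ± 2.12 to 132 ± 4.998 CPM (0.79, adjusted p = 5.5e-05), and in HCT116 it was at 0.17 (adjusted p = 0.31). CDX1 rose in HT29 from 0.462 ± 0.173 to 3.24 ± 0.283 CPM (2.82, adjusted p = 6.6e-07), was at 353 ± 10.7 CPM in LS513 2D and 108 ± 7.61 CPM in LS174T 2D, and held at most 1 count in HCT116. Retinoic acid sets HOX expression in the embryo, and of 17 genes of its synthesis, breakdown and receptors 13 were tested, with 4 higher and 2 lower in HT29, 4 higher in LS513, 5 higher and 2 lower in HCT116, and 5 higher in LS174T. All genes tested were called higher at 21.1%, 13.7%, 16.8% and 13.1% in the same order. DHRS3, a retinal reductase, rose in HT29 (0.85), LS513 (1.31) and LS174T (1.56). STRA6, a retinol transporter, rose and ALDH1A3, which makes retinoic acid, fell in HT29 (1.46 and -1.19). CRABP2, a binding protein, rose in HCT116 (0.91) and LS513 (1.44), ALDH1A2, which also makes retinoic acid, rose in HCT116 (2.82, adjusted p = 0.0015), and CYP26B1, which breaks retinoic acid down, rose in LS174T to 2.13 ± 0.299 CPM (2.34).

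Markers of the epithelium moved with growth as well. Of the 9 intestinal epithelial markers, 5 rose and 1 fell in HT29, 7 rose in LS513, 5 rose in HCT116 and 4 rose in LS174T, with the sum of the list between 10570 and 10870 CPM in LS513 2D and between 14720 and 16990 CPM in LS513 3D. KRT20, a keratin of differentiated colon cells, rose in all 4 lines, with log2 fold changes from 0.76 in HT29 to 3.93 in LS174T. CLDN4 (0.71 to 2.04), LGALS4 (0.96 to 1.74) and KRT19 (0.66 to 1.52) rose in all 4 lines as well, LGALS4 in HCT116 from a level under 1 CPM. Of the 13 markers of other cell types 5 were tested, and CD14 in HT29 (1.04) and VWF in LS513 and HCT116 (0.457 and 0.640 CPM in 3D) were the ones called. At most 3 counts were held in every library of the group by between 6 and 11 of the 13. The part of these markers in the HOX changes was not tested, and fewer cells of a kind cannot be told apart from less RNA per cell in these bulk samples.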

How the data were processed

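Poly(A)+ RNA of 4 CRC cell lines was sequenced by the authors in 24 libraries, as strand-specific single reads of 75 bases. The submitters' processing notes name bcl2fastq 2.18.0.12, Trim Galore 0.4.1, STAR, HTSeq 0.5.3 and the build hg19, whereas the study's methods name the Ensembl 91 annotation; the options of the counting are not given in the sources used here. The deposited values are raw read counts per gene, 1 file for each technical replicate, without normalization by the authors. Counts of the 8 technical replicates of a library were summed (7 for HT29 3D replicate 4), and 191 files entered. Replicate numbers were taken from the titles, and HT29 3D has the numbers 1, 3 and 4.

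Genes passing filterByExpr (19387, among them 33 of the 39 members) were fitted with the quasi-likelihood test of edgeR 4.0.16 (R 4.3.3) over all 8 groups with TMM scaling, and p-values were adjusted by Benjamini-Hochberg over all genes tested. A gene was called at an adjusted p under 0.05. An exact permutation test of 3 against 3 libraries cannot go below p = 0.1 and was not used. Contrasts were 3D against 2D in each line, their interaction with the line, and the 6 pairs of lines over both growth conditions. The fit was tested on simulated data. Exonic lengths, coordinates and homeoboxes came from GENCODE 29 on GRCh38, matched by gene ID, and no coordinates of the files were used.

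The members and lists were chosen with earlier results of these data known. Named members were, for each line, the called members of at least 1 CPM with the smallest p (at most 6), the highest member per length of each cluster, members 4-fold apart in 1 line, members past the interaction test and members at or under 3 counts. For each list and line the 2 called genes with the smallest p were named, with CDX1, CDX2, PRAC1, PRAC2 and overlapping antisense genes. Others were named after their values were seen. Some items named by this rule are not reported here. Alternatives were DESeq2 1.42.0, its size factors in edgeR, no count filter, a replicate block, a fit for each line alone, fold limits, other limits for expression, technical replicate d left out and each library left out in turn.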

Additional observations from a re-analysis of the deposited data

Results flagged for a closer look

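The growth effect differed between the 4 lines, by the interaction term of the edgeR fit, for 8 of 33 members. The adjusted p was 0.00051 for HOXB8, which rose in HT29 and fell in LS513, and 0.00095 for HOXB13, with log2 fold changes from 0.28 in LS174T to 1.797 in HT29. For HOXB9 it was 0.0077 and for HOXB6 0.018, both with their lowest fold change in LS513 (-0.45 and -1.05). HOXB2 passed at 0.019 and HOXA2 at 0.023, HOXB2 with at most 2 counts in the LS174T 2D libraries and HOXA2 with 5 or 6 counts in the HCT116 3D libraries. HOXB7 and HOXC10 passed at 0.045 each, and HOXC10 held 0 counts in LS513 3D.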

How the results depend on the processing

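Of 31 called results of a member in a line at 1 CPM or more, 17 kept their direction and their call under every alternative run for them and 14 lost the call under at least 1; the cause was not tested. A log2 fold change beyond 1 in addition left 1 member in HCT116 and 1 in LS174T, 4 in LS513 and 6 in HT29, which follows from the stricter limit, and limits of -0.5 and 1.5 left 5 in LS174T. Without technical replicate d 5 members were called in HCT116, and with only the libraries of the line 2 in LS174T. With a replicate block 5 members were called in HCT116, 7 in LS174T, 8 in HT29 and 8 in LS513, and the interaction test called 1. The numbers were not taken to pair the samples: over 11 same-numbered pairs the correlation of deviations ran from -0.17 to 0.15 and exceeded 0.1 in 2. Deviations from means of 3 libraries cannot show whether the samples were paired. Values with the block are given only here. HOXD13 (0.78, adjusted p = 0.17) and HOXC8 (-1.07, adjusted p = 0.064) in HT29 lost their edgeR calls under the block. Leaving out 1 library at a time gave 8 to 11 members in HT29, 7 to 10 in LS513, 5 to 7 in HCT116, 3 to 9 in LS174T and 5 to 10 for the interaction. HOXB7 in HCT116, which was not called, ran from -0.048 (without HCT116 3D replicate 3) to 0.144 with 1 library left out, and HOXB9 in HCT116, not called either, from -0.009 (without HCT116 3D replicate 2) to 0.12. HOXB9 in HT29 (0.24, adjusted p = 0.063) was called with DESeq2 (0.28, adjusted p = 0.045) and without HT29 3D replicate 3 (0.39, adjusted p = 0.0065). At 10 counts in place of 1 CPM, 15 members in LS513, 18 in LS174T and 26 each in HT29 and HCT116 were expressed. The floor of 3 counts in a library was a set limit, and whether members at or under it differ from 0 was not tested.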
